A study of Mus musculus with 2 samples.

Results

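Mature neutrophils with Il1b were spleen cells whose UMIs (unique molecular identifiers, 1 per captured RNA molecule) held at least 1% S100a8+S100a9, under 1% Camp+Ngp+Ltf, and at least 2 UMIs and 0.1% of Il1b. They numbered 4307 of the 20058 cells kept after quality filters, of which 3269 came from the wild-type library and 1038 from the SCD library. They were chosen by the counts of these 6 genes in each cell, so their levels and the size of the class are given as descriptions, with no test.

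The libraries were single-cell suspensions of spleen from 1 mouse with sickle cell disease (SCD) and 1 control labelled wild-type, both aged 12 to 16 weeks and untreated, so the genotype and the animal cannot be told apart. The SCD mouse was homozygous for Hbatm1Paz, Hbbtm1Tow and Tg(HBA-HBBs)41Paz, and it sickles. The wild-type mouse did not have intact globin loci: it too was homozygous for Hbatm1Paz, it was heterozygous for Hbbtm1Tow and hemizygous for the transgene, and it does not sickle. After lysis of erythrocytes, dendritic cells (DCs) were enriched by removing other cells on magnetic beads, so the neutrophils were cells the beads had not removed, and shares of cells describe the enriched suspension rather than the spleen.

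Neutrophils leave the bone marrow after passing through stages marked by the granule proteins they make: azurophil granule enzymes first, then specific granule proteins such as those of Camp, Ngp and Ltf, and gelatinase granule proteins last. S100a8 and S100a9 encode calprotectin, the most abundant cytosolic protein of the cell. Il1b encodes the precursor of interleukin-1 beta, a fever-inducing cytokine whose transcription follows Toll-like receptor and NF-kB signals and whose release needs cleavage by inflammasome caspases, and sickle cell disease is known for high neutrophil counts and sterile inflammation.

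Members held 34.7% of the kept wild-type cells (33.7 to 35.7; 3269 of 9423) and 9.76% of the kept SCD cells (9.20 to 10.3; 1038 of 10635), a ratio of 0.281 (0.264 to 0.30). The 95% intervals here and further on are exact for shares (Clopper-Pearson) and levels (Poisson) and a log-normal approximation for ratios of shares, and they cover counting error only and say nothing of the spread between mice. For a count of 0, the limit given is instead the level of 3 counts. Among mature neutrophils, meaning all cells past the S100a8+S100a9 and Camp+Ngp+Ltf criteria, 81.0% in the control (79.8 to 82.2; 3269 of 4036) and 33.9% in the SCD mouse (32.3 to 35.7; 1038 of 3058) met the Il1b criterion as well, a ratio of 0.419 (0.398 to 0.441). With at least 1000 genes required per cell, the ratio was 0.187 for kept cells and 0.255 for mature neutrophils. Mature neutrophils as a whole were 42.8% and 28.8% of kept cells. Those with little Il1b were 8.14% in the wild-type library and 19.0% in the SCD library, and neutrophils with at least 1% Camp+Ngp+Ltf were 6.17% and 43.0%. Set against the cells below the S100a8+S100a9 threshold, a denominator that leaves out the cells counted here as neutrophils, there were 68.0 members per 100 such cells in the wild-type library and 34.6 in the SCD library, a ratio of 0.508. Whether that denominator held neutrophils with less S100a8 and S100a9 was not tested.

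**Figure D1:**
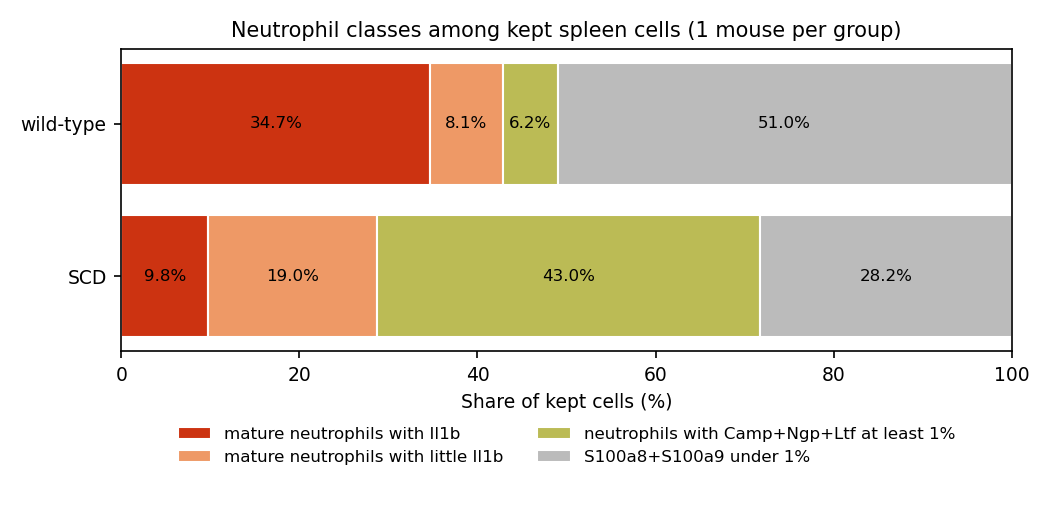
Share of kept cells (%, x axis) in each neutrophil class for the wild-type and the SCD library, 1 mouse each. Mature neutrophils with Il1b take 34.7% of the wild-type bar and 9.76% of the SCD bar, while neutrophils with at least 1% Camp+Ngp+Ltf take 6.17% and 43.0%.

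Il1b itself (ENSMUSG00000027398, chr2:129364570-129371139, minus strand, GRCm38) had a median of 8 UMIs per wild-type member and 7 per SCD member, or 0.349% and 0.281% of the UMIs of the cell. The wild-type members between the quartiles lay between 0.224% and 0.521%, and the SCD members between 0.180% and 0.433%, so the distributions overlapped over most of their range. The highest wild-type member held 82 Il1b UMIs and the highest SCD member 70. Members held 81.8% of all Il1b UMIs of kept wild-type cells and 73.1% of those of kept SCD cells. Mature neutrophils with little Il1b held 4.58% and 12.7% of them, neutrophils with at least 1% Camp+Ngp+Ltf 0.868% and 7.64%, and cells below the S100a8+S100a9 threshold 12.7% and 6.53%. Just inside the Il1b threshold, from 0.1% to 0.12%, there were 101 wild-type and 80 SCD members, whose Csf3r stood at 2065 and 2462 CPM (UMIs of a gene summed over a set of cells and scaled to a common total). Just outside it, from 0.08% to 0.1%, 141 wild-type and 85 SCD cells had Csf3r at 1664 and 1776 CPM.

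**Figure D2:**
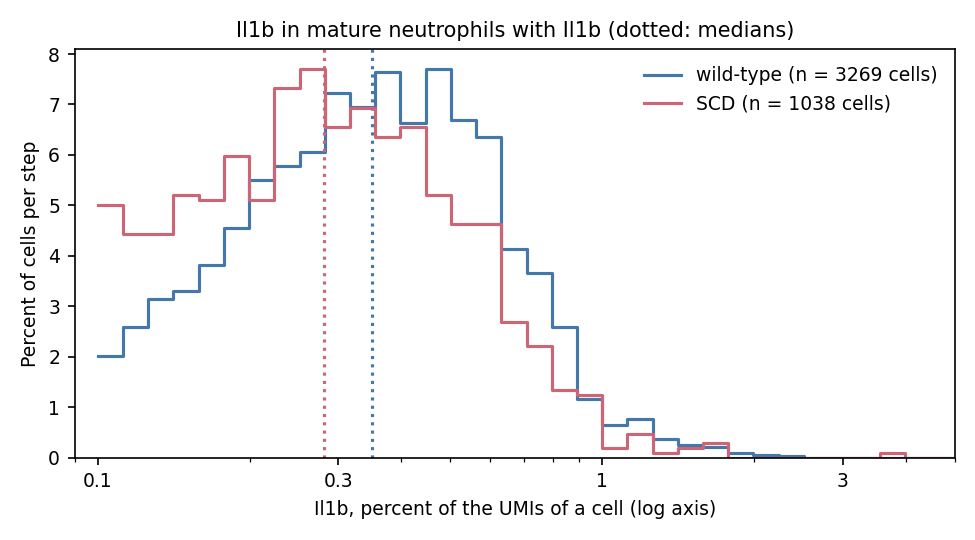
Percent of members (y axis) at each step of the Il1b share of the UMIs of a cell (x axis, log scale), for 3269 wild-type and 1038 SCD cells, with medians dotted at 0.349% and 0.281%. Both curves start at the threshold of 0.1%, overlap, and fall to few cells above 1%.

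The 250 bases upstream of the start of Il1b and of 2 genes that were lower in SCD members, Fos and Dusp1, are shown because Il1b chose the members of both libraries, while Fos and Dusp1 were the genes of the immediate early list called in the contrast described below. Sequences are from RefSeq (GRCm38.p6), 5′ to 3′ on the strand of the gene, and capitals mark matches on either strand to TGACGT, the cAMP response element half-site, or to TATAAA. The latter is the core promoter box that the TATA-binding protein reads. The window of Il1b lies at chr2:129371140-129371389 on the minus strand, Fos at chr12:85473640-85473889 on the plus strand and Dusp1 at chr17:26508473-26508722 on the minus strand. The Dusp1 window is set by the RefSeq start, which lies inside the longer GENCODE gene whose position is given below.
Il1b: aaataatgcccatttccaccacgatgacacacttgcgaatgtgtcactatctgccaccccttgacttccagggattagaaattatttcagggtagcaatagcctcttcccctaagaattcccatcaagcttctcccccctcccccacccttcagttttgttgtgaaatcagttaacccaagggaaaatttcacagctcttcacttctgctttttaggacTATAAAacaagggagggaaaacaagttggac
Fos: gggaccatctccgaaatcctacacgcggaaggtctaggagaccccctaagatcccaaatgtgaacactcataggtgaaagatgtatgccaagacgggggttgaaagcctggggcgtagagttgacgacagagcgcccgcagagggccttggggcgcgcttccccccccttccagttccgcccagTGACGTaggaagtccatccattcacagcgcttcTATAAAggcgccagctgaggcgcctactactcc
Dusp1: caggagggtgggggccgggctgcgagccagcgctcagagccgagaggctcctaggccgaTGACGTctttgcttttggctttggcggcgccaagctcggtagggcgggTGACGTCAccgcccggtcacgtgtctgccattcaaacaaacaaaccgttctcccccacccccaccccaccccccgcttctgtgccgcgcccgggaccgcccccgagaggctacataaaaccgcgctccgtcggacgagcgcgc
The TATAAA match lay 25 bases upstream of the start in Il1b and 27 bases upstream in Fos. TGACGT lay 60 bases upstream in Fos. In Dusp1 one match lay 185 bases upstream, and 2 overlapping matches on opposite strands, 137 and 135 bases upstream, made up the run TGACGTCA. The Il1b window held no TGACGT and the Dusp1 window no TATAAA, which says only that these letters were not there. Of 27018 windows of this length, 7.30% held TGACGT and 14.3% held TATAAA. Among the genes compared below that had a window, TGACGT was in 269 of 2052 (13.1%), in 5 of the 32 at least 2-fold lower in SCD members (15.6%), in 4 of the 17 at least 2-fold higher (23.5%) and in 4 of 19 immediate early genes (21.1%).

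The members carried the markers of mature neutrophils. Csf3r, the receptor for granulocyte colony-stimulating factor (ENSMUSG00000028859, chr4:126024550-126044440, GRCm38), stood at 3128 CPM in the summed wild-type members (3091 to 3166) and at 2977 CPM in the SCD members (2910 to 3044), against 22.4 and 8.36 CPM in plasmacytoid DCs of the same libraries, which should lack it. After each cell was thinned to 1000 UMIs, 94.6% of wild-type members (93.8 to 95.4) and 92.8% of SCD members (91.1 to 94.3) held a Csf3r UMI, as did 2.00% and 1.02% of plasmacytoid DCs. Without thinning the shares were 99.6% and 99.4% of members and 15.7% and 6.52% of plasmacytoid DCs, at median depths of 2359 and 2269 UMIs in members and 11027.5 and 8850 UMIs in plasmacytoid DCs. Thinning left out 26 wild-type and 4 SCD members that were shallower. Clec4d, a C-type lectin receptor for mycobacterial glycolipid, was at 1102 and 851 CPM. Cxcr2, the receptor through which neutrophils follow CXC chemokines out of the marrow, was at 2307 and 1948 CPM. All 20 genes of the mature neutrophil list were detected in both libraries.

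Depth and the ribosomal share of the members were close between the libraries. The medians were 2359 and 2269 UMIs and 976 and 940.5 genes per cell, and 5.10% and 5.12% ribosomal protein UMIs. The median mitochondrial share was higher in SCD members, at 0.351% (wild-type) and 0.525% (SCD). The summed UMIs of the members were 8658979 and 2566529. Neutrophil RNA in cells that should lack it differed more. In plasmacytoid DCs, S100a9 was at 339 (wild-type) and 1884 CPM (SCD) and Camp at 31.5 and 317 CPM, while members held 65.1 and 678 CPM of Camp. The part of this background in the granule gene results below was not tested. The libraries shared 88 of their barcodes, and 1 barcode was a member in both. Of the beta-globin genes, Hbb-bs was at 2293 CPM in kept wild-type and 20.8 CPM in kept SCD cells, in the direction of the labels. Hba-a1 was at 915 and 792 CPM although both mice were labelled homozygous for the targeted Hba locus, and whether the counted 3′ end lies in the replaced part was not tested.

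A small set of wild-type members carried the RNA of other cells. In 90 wild-type members (2.75%) and 4 SCD members (0.385%), the UMIs of the mature neutrophil list did not exceed those of all other cell lists together. The 90 cells had a median of 8977 UMIs, held 9.67% of the UMIs of the wild-type members, and 73 of them (81.1%) were called doublets by Scrublet. In them Cd74, the invariant chain of MHC class II, was at 13035 CPM, against 241 CPM in the other wild-type members and 103 CPM in the other SCD members. Cd74 is on the conventional DC list, which entered the split, so part of this contrast follows from it. The conventional DC list (17 genes) summed to 5650 CPM in wild-type and 2006 CPM in SCD members, and to 2822 and 1908 CPM without the 90 and 4 cells. Of these last sums, 2064 and 1518 CPM came from 1 gene, Cst3, while H2-Aa was at 109 and 36.1 CPM. The erythroid list (11 genes) summed to 1372 and 331 CPM, and to 181 and 332 CPM without the 90 and 4 cells. The monocyte list (14 genes) was at 667 and 530 CPM, the macrophage list at 1080 and 860, the plasmacytoid DC list at 300 and 166, the T and NK list at 381 and 256, the B lineage list at 94.6 and 111, the eosinophil list at 56.0 and 37.8, and the basophil and mast list at 0.924 and 3.12 CPM. The macrophage list holds Slc40a1 and Hmox1, whose levels in members are given below. Cells below the S100a8+S100a9 threshold held less of the macrophage list, at 678 and 603 CPM. They also held less of the T and NK list, at 166 and 128 CPM, so neither sum is a measure of RNA from other cells. The defining basophil and eosinophil genes Mcpt8 and Epx were at 0 in both libraries, and Cd3e had no UMI in SCD members. Results are therefore given over all members and, where it matters, over the 3179 wild-type and 1034 SCD members whose mature neutrophil UMIs led, called the neutrophil majority. Over these, members were 33.7% and 9.72% of kept cells, a ratio of 0.288 (0.270 to 0.307).

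SCD members were compared with wild-type members on 2591 genes, those with at least 50 CPM and 20 UMIs in the members of at least 1 library, leaving out the 6 rule genes. Log2 ratios are SCD over wild-type of CPM + 5, and with 1 library per group a gene counted as called when it differed at least 2-fold, with no test. Of the 2591 genes, 22 were at least 2-fold higher (0.849%) and 43 at least 2-fold lower (1.66%) in SCD members. Over the neutrophil majority the counts were 24 higher (0.944%) and 27 lower (1.06%) of 2542 genes, and with median-of-ratios scaling 35 and 36, so that the share of higher genes among the calls went from 33.8% to 47.1% and 49.3%. With Il1b at least 0.3% of UMIs there were 30 higher and 25 lower genes (54.5% higher), and without the minimum of 50 CPM 57 and 236 (19.5%), so which direction held more calls depended on the setting. The median gene had a log2 ratio of -0.14, and median-of-ratios scaling raised the SCD levels by 0.12 on the log2 scale, which moved ratios by less where the SCD level was low.

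**Figure D3:**
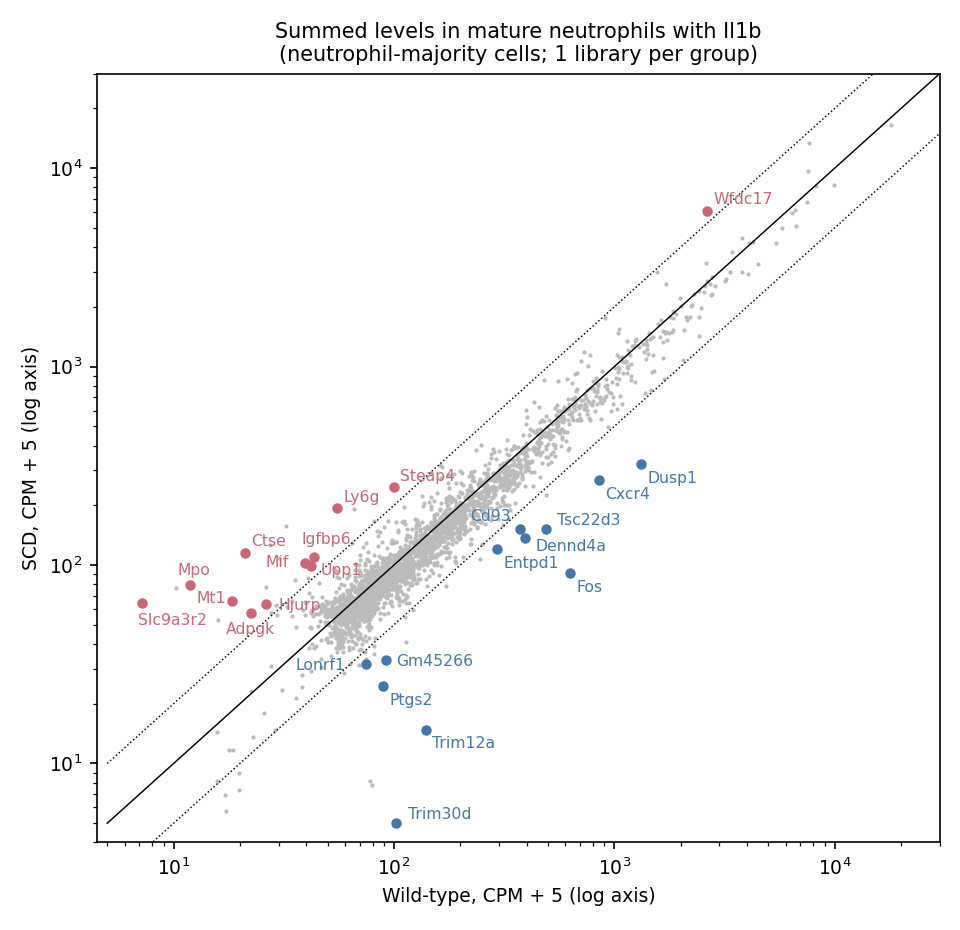
Summed level of each compared gene in wild-type (x axis) and SCD (y axis) members of the neutrophil majority, both as CPM + 5 on log axes, with the line of equality solid and the 2-fold lines dotted. Most genes lie between the dotted lines, while Fos, Dusp1, Cxcr4 and Trim30d lie far below them and Wfdc17, Steap4 and Ly6g above.

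Fos and Dusp1, which respond to signals within minutes to hours, were lower in SCD members. Fos, a subunit of the AP-1 transcription factor (ENSMUSG00000021250, chr12:85473890-85477273, GRCm38), was at 593 CPM in wild-type members (577 to 609; 5132 UMIs) and at 85.7 CPM in SCD members (74.8 to 97.8; 220 UMIs), a log2 ratio of -2.72 and of -2.79 in the neutrophil majority. Its level in plasmacytoid DCs was 14.0 and 1.81 CPM. After thinning, 39.5% of wild-type members (37.8 to 41.2) and 8.32% of SCD members (6.71 to 10.2) held a Fos UMI, against 1.43% of wild-type plasmacytoid DCs and 0 of 491 SCD plasmacytoid DCs, which allows a share of up to 0.611%. Without thinning the shares were 61.5% and 16.3%. Dusp1, a phosphatase that switches off MAP kinases (ENSMUSG00000024190, chr17:26505590-26562128), was at 1238 CPM (1214 to 1261) and 317 CPM (295 to 339), a log2 ratio of -1.95. A Dusp1 UMI was found in 60.7% of thinned wild-type and 25.5% of thinned SCD members, so the lower level came with fewer cells holding the transcript. Both genes also stood lower in SCD cells below the S100a8+S100a9 threshold, Fos at 73.9 and 18.9 CPM and Dusp1 at 74.99 and 13.3 CPM.

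Further genes were at least 2-fold lower in SCD members. Cxcr4, the receptor that holds neutrophils in the marrow and returns aged ones to it, was at 794 CPM (775 to 813) and 263 CPM (243 to 283), a log2 ratio of -1.58. Thinned shares with a Cxcr4 UMI were 51.4% and 23.4% of members, and 3.14% and 6.92% of plasmacytoid DCs. Whether plasmacytoid DCs express Cxcr4 themselves was not tested. Ptgs2, the inducible cyclooxygenase of prostaglandin synthesis, was at 81.9 and 20.3 CPM (-1.78). Tsc22d3, a glucocorticoid-induced leucine zipper protein, was at 457 and 147 CPM (-1.61). Cd93, a transmembrane receptor of the C-type lectin family, was at 349 and 146 CPM (-1.23), and Entpd1, the ectonucleotidase CD39 that breaks down extracellular ATP, at 273 and 115 CPM (-1.22). Csf1, the macrophage growth factor, was at 155 and 73.3 CPM (-1.03). Dennd4a, an exchange factor for Rab GTPases, was at 370 and 131 CPM (-1.47), Lonrf1 at 64.8 and 26.5 CPM (-1.15) and the unannotated Gm45266 at 82.8 and 28.1 CPM (-1.41).

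By the rule for named genes, which leaves out globin genes, the lists of other cells and genes well above the members in cells below the S100a8+S100a9 threshold, the lowest ratios were those of Trim30d and Trim12a, of the TRIM family of ubiquitin ligases that act in antiviral defence. Trim30d (ENSMUSG00000057596, chr7:104470014-104507849, minus strand, GRCm38) had 803 UMIs in wild-type members (92.7 CPM) and 0 in SCD members, which against a floor of 3 counts over the SCD members (1.17 CPM) was at least 79.3-fold lower. Trim12a (ENSMUSG00000066258, chr7:104299894-104315466, minus strand) was at 132 CPM and 9.74 CPM, a log2 ratio of -3.22. The difference was also present in plasmacytoid DCs, where Trim30d was at 61.8 and 4.52 CPM and Trim12a at 104 and 6.10 CPM. Trim30d lies 642 kb and Trim12a 472 kb from the beta-globin genes on chromosome 7 (Hbb-bs, chr7:103826534-103828096), the locus at which the wild-type mouse was labelled heterozygous and the SCD mouse homozygous for the targeted allele. The 3 compared genes lying between them were near equal or less apart: Trim12c was at 329 and 295 CPM (-0.16), Trim30b at 462 and 317 CPM (-0.54) and Trim30a at 285 and 245 CPM (-0.21). These genes have closely similar copies beside them, so the split of reads among them is uncertain, and the part of the linked locus in the difference was not tested.

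For other lower genes the ratio was nearer to 0 in the neutrophil majority, which leaves out the 90 wild-type and 4 SCD cells described above. Cd74 and H2-Aa entered that split through the conventional DC list, so for these genes a shift toward 0 follows in part from it. Cd74 was at 1478 and 140 CPM over all members, a log2 ratio of -3.35, and at -1.19 in the neutrophil majority. H2-Aa went from -3.39 to -1.47, S100a4 from -2.13 to -0.66, Relb, an NF-kB subunit, from -1.27 to -0.52, and Bcl2a1b, an inhibitor of apoptosis, from -1.03 to -0.51. Fos, Dusp1, Cxcr4 and Tsc22d3 instead differed by as much or more in the majority, at -2.79, -2.03, -1.66 and -1.69.

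Of the genes higher in SCD members, Wfdc17 had the highest level among those named by the rule. Wfdc17, a small secreted protein with a whey acidic protein fold, was at 2447 CPM in wild-type members (2414 to 2480; 21190 UMIs) and 6072 CPM in SCD members (5977 to 6169; 15585 UMIs), a log2 ratio of 1.31. After thinning, 51.6% of wild-type (49.9 to 53.4) and 79.2% of SCD members (76.6 to 81.6) held a Wfdc17 UMI, against 3.43% and 2.24% of plasmacytoid DCs. Steap4, a membrane metalloreductase, was at 87.4 and 241 CPM (1.41), with a UMI in 7.22% and 17.8% of thinned members and in 0 of 700 and 0 of 491 thinned plasmacytoid DCs, which allows up to 0.429% and 0.611%. Igfbp6, which binds insulin-like growth factors, was at 36.1 and 104 CPM (1.41), and Ifitm1, an interferon-induced membrane protein, at 1452 and 3005 CPM (1.05, and 0.95 in the neutrophil majority, short of 2-fold). Slc9a3r2, a scaffold protein of ion transporters, was at 1.96 and 59.6 CPM. Its log2 ratio depended on the pseudocount, at 3.21 with 5 CPM, 4.35 with 1 CPM and 1.86 with 20 CPM. Upp1, uridine phosphorylase, was at 35.1 and 92.7 CPM (1.28).

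Some granule genes were higher in SCD members, in the library whose plasmacytoid DCs also held more neutrophil RNA. Ly6g, the surface antigen by which mouse neutrophils are stained, was at 46.5 CPM (42.1 to 51.3) and 187 CPM (171 to 205), a log2 ratio of 1.90, with 1.64 and 8.14 CPM in plasmacytoid DCs. Cd177, a surface protein linked to specific granules, was at 55.4 and 124 CPM (1.09), Wfdc21 at 831 and 1748 CPM (1.07), Chil1 at 148 and 305 CPM (1.02) and Chil3, a chitinase-like protein, at 24.4 and 120 CPM (2.09). Of the 21 genes of the specific and gelatinase granule list that were compared, these 5 were at least 2-fold higher (Wfdc21 at 0.96 and Chil1 at 0.92 fell short of it in the neutrophil majority), against 0.849% of all compared genes, none was at least 2-fold lower, 13 had a ratio above 0 and the median log2 ratio was 0.12, against -0.14 over all compared genes. Retnlg, a resistin-like protein of late neutrophils, was at 7019 and 13316 CPM (0.92), while Mmp9, the gelatinase, was at 2151 and 2300 CPM. Among azurophil genes Mpo, myeloperoxidase, was at 6.47 CPM and 73.6 CPM and Prtn3, proteinase 3, at 5.43 and 71.7 CPM. Plasmacytoid DCs held 1.77 and 25.8 CPM of Mpo and 1.90 and 29.8 CPM of Prtn3.

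For several other higher genes the plasmacytoid DCs of the SCD library held a level of the same order as the members. Ctse, cathepsin E, was at 15.01 and 110 CPM in members (2.53) and at 4.803 and 97.4 CPM in plasmacytoid DCs. Mt1, the metal-binding metallothionein, was at 14.4 and 60.8 CPM (1.76), and at 8.47 and 26.2 CPM in plasmacytoid DCs. Adpgk, an ADP-dependent glucokinase, was at 17.6 and 52.2 CPM (1.34) and at 43.5 and 47.0 CPM in plasmacytoid DCs. Hjurp, a centromere histone chaperone, was at 21.2 and 58.8 CPM (1.28), and Mif, a cytokine expressed by many cells, at 38.8 and 97.0 CPM (1.22), with 146 and 186 CPM in plasmacytoid DCs.

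Of the immediate early list, 20 genes were compared. Fos and Dusp1 were at least 2-fold lower in SCD members, against 1.66% of all compared genes, none was at least 2-fold higher, 19 of the 20 ratios were below 0 and the median was -0.55 (-0.63 in the neutrophil majority). Junb, a second AP-1 subunit, was at 1387 and 757 CPM, and 71.5% and 51.9% of thinned members held a UMI of it. Jund was at 1294 and 729 CPM, Klf2, a factor of quiescence and migration, at 1024 and 642 CPM, Zfp36, which destabilises cytokine mRNAs, at 939 and 693 CPM, and Jun at 91.6 and 71.7 CPM. Dusp6, at 241 and 242 CPM, was the exception. Over all 2591 genes, 730 had a ratio above 0.

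Of 18 genes on the IL-1 and inflammasome list 9 were compared. None was at least 2-fold apart, where over all compared genes 0.849% were higher and 1.66% lower, so that a list of this size would hold few calls or none at that rate. The median was -0.29. Nlrp3, the sensor of the inflammasome that matures interleukin-1 beta, was at 258 and 170 CPM (-0.59), and 22.6% and 15.7% of thinned members held a UMI. Il1rap, the receptor accessory protein, was at 229 and 122 CPM (-0.88), the decoy receptor Il1r2 at 162 and 112 CPM (-0.52), and Il1rn, the receptor antagonist, at 323 and 278 CPM (-0.21). Mefv, which encodes pyrin, was at 87.4 and 104 CPM (0.23). Casp1, the caspase that cleaves the Il1b product, fell under the filter at 32.2 and 31.9 CPM, as did the adaptor Pycard at 26.1 in both libraries. Il1a had 1 UMI in 3269 wild-type members and 0 in 1038 SCD members, where 3 counts would be 1.17 CPM.

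Of 16 compared genes of the NF-kB feedback list, Ptgs2 and Relb were at least 2-fold lower (1 of 14 in the majority), against 1.66% of all compared genes, none had a ratio above 0 and the median was -0.46 (-0.40 in the majority, -0.20 with Il1b at least 0.3% of UMIs). The list summed to 5416 CPM in the 79 wild-type members at 1% Il1b or more and to 8489 CPM in the 14 such SCD members, the opposite direction. Nfkbia, the inhibitor induced by NF-kB itself, was at 308 and 245 CPM, Tnfaip2 at 1162 and 831 CPM and Bcl3 at 100.5 and 58.8 CPM. The cytokine and chemokine list had 6 genes compared and a median of -0.33, with Ccl5 and Csf1 at least 2-fold lower. Ccl6, a chemokine made in quantity by mouse neutrophils, was at 4152 and 3266 CPM. The survival and death list (14 genes) had a median of -0.35. Mcl1, the short-lived protein on which neutrophil survival depends, was at 2298 and 1419 CPM, and the pro-apoptotic Bcl2l11 at 106 and 59.6 CPM.

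Of 24 surface receptors compared, Cxcr4 alone was at least 2-fold apart (over all compared genes 0.849% were higher and 1.66% lower) and the median was -0.18, close to the -0.14 over all compared genes. The chemoattractant receptors C5ar1 and Fpr2 were at 483 and 469 CPM and at 292 and 293 CPM, and Cd44, a hyaluronan receptor, at 1391 and 927 CPM. Of 18 pattern recognition genes none was 2-fold apart, with a median of -0.12: Clec7a, the beta-glucan receptor dectin-1, was at 1560 and 1087 CPM, and Tlr2 at 81.1 and 73.6 CPM. The mature neutrophil list had a median of -0.045 (-0.13 in the majority, 0.080 with median-of-ratios scaling), and of its 20 genes Ly6g alone was called, against the 0.849% of all compared genes that were higher. Slpi, a protease inhibitor, was at 5366 and 4955 CPM and Msrb1 at 6130 and 6152 CPM. The heat shock list (9 genes) had a median of -0.34 and the transcription factor list (17 genes) of -0.24, with no call in either over all members. The master regulator Spi1 was at 1005 and 1115 CPM, and Mxd1, an antagonist of Myc, at 1425 and 936 CPM.

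Of 16 glycolysis and hypoxia genes 12 had a ratio above 0, with no call and a median of 0.25 (0.18 in the majority). Gapdh was at 725 and 1001 CPM (0.46), Aldoa at 378 and 506 (0.41), Eno1 at 128 and 192 (0.57) and Pgk1 at 98.6 and 142 (0.50), each a glycolytic enzyme, while Hif1a was at 60.7 and 46.0 CPM. The heme, iron and NRF2 list, which covers the handling of heme set free by hemolysis, had 21 genes compared, no call and a median of -0.036 (0.12 with median-of-ratios scaling). Hmox1, which breaks down heme, was at 89.0 CPM (82.9 to 95.6) and 79.5 CPM (69.0 to 91.2), with overlapping intervals. A Hmox1 UMI was found in 7.49% and 6.09% of thinned members. The iron exporter Slc40a1 was at 854 and 703 CPM, ferritin heavy chain (Fth1) at 6413 and 5121 CPM and the peroxiredoxin Prdx5 at 977 and 1471 CPM (0.59). Interferon-stimulated genes (18 compared) had a median of 0.016, with no call. Isg15 was at 201 and 173 CPM, while Rtp4 at 159 and 252 and Oas3 at 101 and 154 were the highest ratios, 0.64 and 0.59. The NADPH oxidase and NET list (10 genes) had a median of 0.073, with Mpo as its 1 call (against 0.849% of all compared genes, and with the level in SCD plasmacytoid DCs given above), the S100 and annexin list (7 genes) 0.035 and the cell cycle list (5 genes) 0.013.

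**Figure D4:**
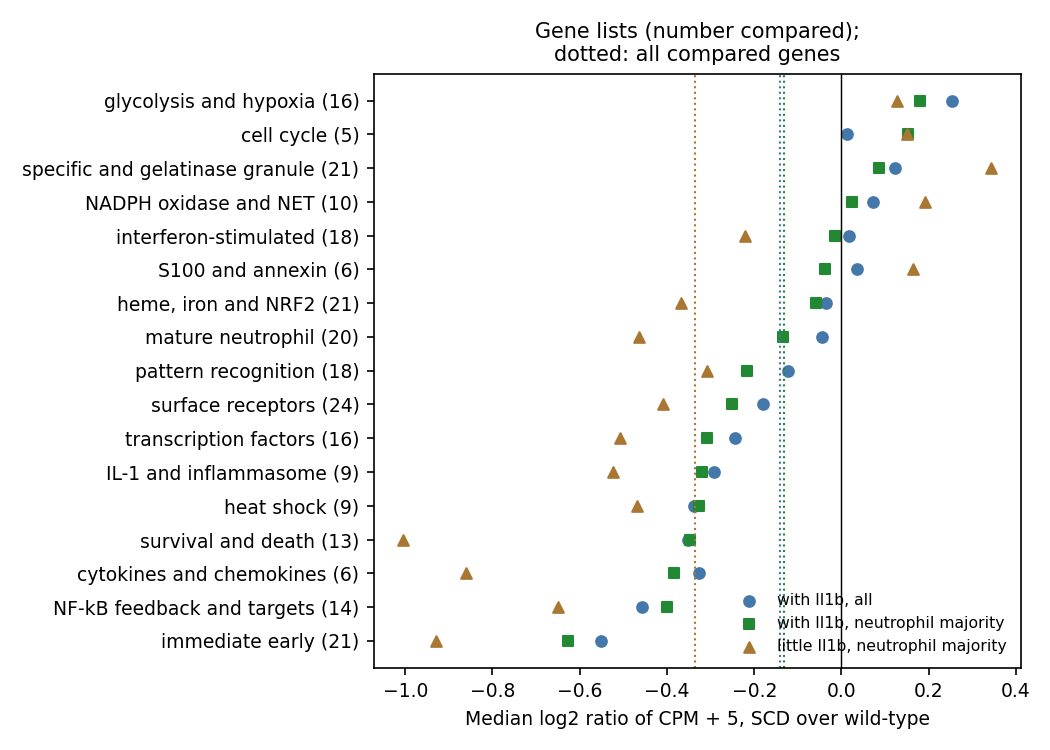
Median log2 ratio of CPM + 5, SCD over wild-type (x axis), for each gene list with at least 5 compared genes (y axis, number compared in the neutrophil majority in brackets), in all members, in the neutrophil majority and in the majority of mature neutrophils with little Il1b. The immediate early list lies lowest among members at -0.55 and the glycolysis list highest at 0.25, around an all-gene median of -0.14 (dotted lines).

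The same contrast in mature neutrophils with little Il1b, which are other cells of the same mice, gave larger counts: 63 higher (2.15%) and 316 lower (10.8%) of 2933 genes, and 29 (1.17%) and 169 (6.82%) of 2477 in their neutrophil majority. The whole class lay lower, with a median gene at -0.38 (-0.34 in the majority) against -0.14 in members, and median-of-ratios scaling would move its ratios up by 0.53 against 0.12 in members, so the ratios that follow are to be read against these shifts. Their depth differed more, at medians of 2982 and 4264 UMIs, and so did their S100a8+S100a9 share, at 15.1% and 33.6% against 13.9% and 18.7% in members. Of these cells, 130 of 767 wild-type (16.9%) and 39 of 2020 SCD cells (1.93%) were called doublets. Their conventional DC list summed to 14521 and 3390 CPM, the erythroid list to 5293 and 1481 and the plasmacytoid DC list to 2089 and 427. The T and NK list (365 and 461 CPM) and the basophil and mast list (0.751 and 2.20 CPM) went the other way. The part of other cells in the counts was not tested. Fos was lower in SCD cells of both classes, with a log2 ratio of -2.72 in members and -3.70 in cells with little Il1b, and so were Dusp1 (-1.95 and -2.58), Tsc22d3 (-1.61 and -1.96) and Entpd1 (-1.22 and -2.34). Cxcr4 was at -1.58 in members and at -0.34 in cells with little Il1b, where it stood at 318 and 250 CPM and near the median gene of that class. Wfdc17 was at 1.31 in members and 0.33 in the others, Steap4 at 1.41 and -0.10, and Ifitm1 at 1.05 and -0.05. Ly6g was at 1.90 and 2.51. In the neutrophil majority of the cells with little Il1b, Wfdc17 was at -0.046, Steap4 at -0.54, Ifitm1 at -0.49 and Cxcr4 at -0.71. Whether these ratios differ between the classes could not be tested with 1 library per group.

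Within each library, members were set against cells with little Il1b. The classes were cut by Il1b, and Il1b varies with other genes, so the values are a description. Over all cells of both classes, 84 of 3065 genes were at least 2-fold higher (2.74%) and 349 lower (11.4%) in wild-type members, and 248 of 2604 higher (9.52%) and 173 lower (6.64%) in SCD members. In the neutrophil majority, 20 of 2595 genes were at least 2-fold higher (0.771%) and 61 lower (2.35%) in wild-type members, and 238 of 2471 higher (9.63%) and 71 lower (2.87%) in SCD members. Of the 20 genes of the mature neutrophil list, none was at least 2-fold higher and 3 were lower in the wild-type majority, and 2 were higher and 3 lower in the SCD majority, with 13 ratios above 0 in each. In the majority, Csf3r was higher in members of both libraries, with log2 ratios of 0.62 (wild-type) and 1.65 (SCD), as were Cxcr2 (0.43 and 0.79) and Clec4d (0.53 and 0.86). Mmp8, the neutrophil collagenase (-1.73 and -2.20), Retnlg (-1.51 and -1.72), Ly6g (-1.89 and -1.99) and Cd177 (-2.16 and -2.21) were lower in members of both.

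For this contrast, genes were ranked by the weaker ratio of the libraries, among those with at least 50 CPM in either class of each library. Igfbp6 fell short of that level, at 36.1 and 8.76 CPM in the wild-type classes, although its log2 ratios were 1.58 (wild-type) and 3.54 (SCD). Over all cells of both classes, the 12 genes highest in members by the rule for named genes were Csf1, Steap4, Clec4n, Il1rap, Fgl2, Oasl2, Ets2, Tnfaip2, Slc7a11, H2-Q10, Wfdc17 and Socs3. In the wild-type neutrophil majority 7 of them, from Oasl2 to Socs3 in this order, fell short of 2-fold, with log2 ratios between 0.74 (H2-Q10) and 0.995 (Socs3). Csf1 stood at 167 CPM in wild-type members against 70.9 CPM in cells with little Il1b, and at 73.8 against 6.19 CPM in the SCD library, both over the neutrophil majority. Fgl2, a secreted immunoregulatory protein, was at 1674 against 825 CPM and at 866 against 129 CPM. Clec4n, the receptor dectin-2, was at 147 against 55.3 and at 97.4 against 14.4 CPM, and Slc7a11, the cystine transporter, at 239 against 132 and at 163 against 65.2 CPM. Socs3, the feedback inhibitor of cytokine receptors, was at 172 against 84.0 and at 105 against 12.7 CPM. The 12 lowest, again over all cells, were Elane, Prtn3, Ctsg, Mpo, Adpgk, Cybb, Tmed3, Cd177, Lims1, Anxa3, Aprt and Capg. In the SCD neutrophil majority Elane (-0.997), Prtn3 (-0.77), Ctsg (-0.54), Mpo (-0.13) and Tmed3 (-0.22) were no longer 2-fold lower, and neither were Ctsg (-0.57) and Tmed3 (-0.75) in the wild-type one. Elane, neutrophil elastase, was at 3.84 against 147 CPM (wild-type) and at 49.5 against 104 CPM (SCD), and Cybb, the catalytic subunit of the NADPH oxidase, at 124 against 366 and at 91.9 against 473 CPM.

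Members also varied among themselves along the Il1b share. Of the wild-type members 40.5% lay between 0.1% and 0.3% of UMIs, 57.1% between 0.3% and 1% and 2.42% (79 cells) at 1% or more, and of the SCD members 54.1%, 44.5% and 1.35% (14 cells). In the neutrophil majority, Fos was at 595, 645 and 793 CPM from the lowest to the highest of these bins in the wild-type library and at 61.9, 121 and 153 CPM in the SCD library, so in each bin SCD members held less Fos. Dusp1 was at 1187, 1382 and 2226 CPM and at 249, 418 and 421 CPM, and Cxcr4 at 699, 915 and 1692 and at 202, 337 and 879 CPM. Retnlg ran downward, at 9463, 6417 and 3683 CPM in wild-type and 17557, 7530 and 4894 CPM in SCD members. Wfdc17 was nearly level, at 2554.5, 2697 and 2315 and at 5887, 6449 and 6118 CPM, and was higher in SCD members in each bin. Steap4 was at 66.2, 114 and 147 and at 206, 290 and 535 CPM. The highest SCD bin held 14 cells, and its values rest on them.

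**Figure D5:**
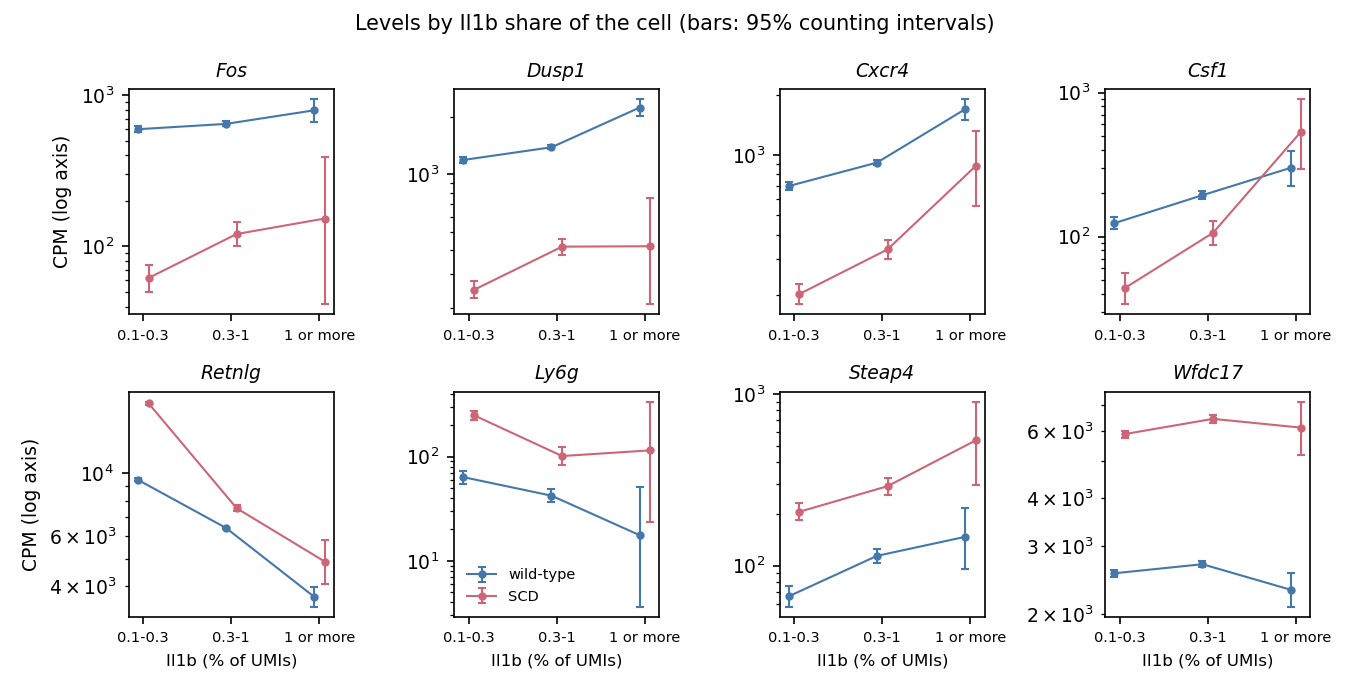
Summed level of 8 genes (CPM, log axes) in members of the neutrophil majority by their Il1b share of UMIs (x axis), with exact 95% counting intervals. Fos, Dusp1 and Cxcr4 are lower in SCD than in wild-type members in each bin, Retnlg falls along the Il1b share in both libraries, and Wfdc17 is higher in SCD members throughout. The intervals of the highest SCD bin are wide because it holds 14 cells.

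Cxcl2, a chemokine that draws further neutrophils, was found in a minority of the cells with the most Il1b. A Cxcl2 UMI was found in 10 of the 79 wild-type members at 1% Il1b or more, which held 97 of the 323 Cxcl2 UMIs of all wild-type members (30.03%), and in 4 of the 14 such SCD members, which held 66 of 122 (54.1%). A single SCD member held 36 of the 122. Tnf, the tumour necrosis factor gene, had a UMI in 7 of those 79 and in 5 of those 14 cells. Over all members, a Tnf UMI was in 1.30% and 1.84% of thinned cells, against 0.143% and 0.407% of thinned plasmacytoid DCs. The intervals of these thinned shares were apart in the wild-type library, at 0.935 to 1.75 and 0.00362 to 0.793. In the SCD library they overlapped, at 1.11 to 2.85 and 0.0494 to 1.46, so Tnf was not clearly above background there. Without thinning the shares were 3.03% and 4.14% of members and 3.86% and 2.44% of plasmacytoid DCs, which held more UMIs per cell. Nfkbia was at 204, 339 and 987 CPM along the bins in wild-type and at 173, 296 and 2256 CPM in SCD members, and Ptgs2 was at 50.7, 99.2 and 347 CPM and at 15.3, 22.6 and 153 CPM. Over all members Cxcl2 was rare, with a UMI in 1.36% of thinned wild-type (0.988 to 1.82) and 0.967% of thinned SCD members (0.465 to 1.77).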

How the data were processed

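Spleen cells of 1 wild-type and 1 SCD mouse were profiled by droplet single-cell RNA sequencing. The authors deposited matrices of raw UMI counts per gene and cell, made with Cell Ranger 4.0.0 on GRCm38.p6 per the submitters' processing notes. The notes also name R 4.4, Scanpy 1.6.0 and Seurat 3.2.3, and no normalized values were used here. The libraries held 10845 and 13447 cells and 97880318 and 189688217 UMIs.

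Cells with 500 to 5000 genes, under 15% mt- and under 30% Rpl and Rps UMIs were kept. UMIs were summed per class and library and given as CPM, with a pseudocount of 5 CPM for log2 ratios. With 1 library per group no test was run, and genes at least 2-fold apart were counted. Plasmacytoid DCs (Siglech at least 2 UMIs and 0.1%, S100a8+S100a9 under 1%) gave the background. Named genes were the 12 highest and 12 lowest ratios, without mitochondrial, ribosomal, immunoglobulin, T cell receptor, globin, sex-linked, rule and other-cell list genes and genes at under 0.5 of their level in cells below the S100a8+S100a9 threshold, and beside these the genes of the role lists. Ifitm1, Trim12c, Trim30a and Trim30b were named after their values were seen. The members and lists were chosen with earlier results of these data known. Doublets were called with Scrublet (scanpy 1.11.5) and were left in, except in an alternative. The summing and calling steps were tested on simulated counts. Gene positions are from GENCODE (GRCm38), and the promoter table gave a window for 2052 of the 2591 compared genes. Alternatives covered the cell filters, each threshold of the rule, thinning, scaling, the pseudocount, the level filter, doublets, depth and cell weights. Intervals were computed with scipy 1.17.1 and sums with numpy 2.4.6 under Python 3.11.15; pandas 2.3.3 and matplotlib 3.10.9 handled tables and plots.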

Additional observations from a re-analysis of the deposited data

Results flagged for a closer look

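Igfbp6 was higher in SCD than in wild-type members, with a log2 ratio of 1.41, and lower in SCD mature neutrophils with little Il1b, with a ratio of -0.55. It stood out because the direction was opposite in the 2 classes of the same mice. The difference between the classes was not tested, and the lower ratio rested on levels of 8.76 and 4.40 CPM. The interferon-stimulated list had a median of 0.016 in members and of -0.27 in mature neutrophils with little Il1b, again of opposite sign and again not tested. The median over all compared genes was -0.14 and -0.38 in these classes, and in the neutrophil majority the list medians had the same sign, -0.014 and -0.22. The median in members was within 0.2 of 0 under each alternative, from -0.17 to 0.19.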

How the results depend on the processing

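No paired analysis was possible because the groups have 1 mouse apiece, and leaving out a replicate would leave a group empty. A share counted as moved once outside its counting interval, a list median when it moved by more than its tolerance and a count when it moved over 1.5 times. The mean of CPM per cell, and the neutrophil majority for members against cells with little Il1b, were chosen after seeing the data. None of the 24 genes named between the libraries changed direction under the alternatives run for them. For each moved value the cause was not tested, except that the filters change by construction which cells or genes enter.

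Of 20 alternative values of the share ratios 14 stayed and 6 moved. The ratio of shares of kept cells was 0.187 with at least 1000 genes per cell, 0.260 without the upper gene limit and 0.217 with Il1b at least 0.3%. The ratio of shares of mature neutrophils was 0.255, 0.323 with Il1b at least 0.3% and 0.452 with Camp+Ngp+Ltf under 0.5%, the first of these with at least 1000 genes. The number of higher genes was 35 with median-of-ratios scaling and 57 without the minimum of 50 CPM. The number of lower genes was 236 without that minimum, 25 with Il1b at least 0.3%, 27 in the neutrophil majority and 26 with the mean of CPM per cell. Between members and cells with little Il1b, the neutrophil majority left 20 higher and 61 lower genes in the wild-type and 71 lower genes in the SCD library, against 84, 349 and 173 over all cells. Of 52 alternative values for members against cells with little Il1b, 18 stayed and 34 moved.

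Of 180 list medians 152 stayed and 28 moved. The mature neutrophil median was -0.17 with thinned cells, -0.12 with doublets removed, 0.080 with median-of-ratios scaling, -0.14 with Il1b at least 0.3%, -0.13 in the majority, -0.17 at 2000 to 6000 UMIs and -0.12 with the mean per cell. The cell cycle median was 0.17 thinned, 0.16 without doublets, 0.24 with median-of-ratios scaling, 0.70 without the CPM minimum, 0.19 with Il1b at least 0.3%, 0.15 in the majority and 0.38 with the mean per cell. The S100 and annexin median was -0.056 thinned, 0.16 with median-of-ratios scaling, -0.071 with Il1b at least 0.3% and -0.050 with the mean per cell. With median-of-ratios scaling the interferon-stimulated median was 0.19, the heme, iron and NRF2 median 0.12 and the NADPH oxidase median 0.27, and at 2000 to 6000 UMIs the interferon-stimulated median was -0.17. The azurophil median was 2.83 over the 2 genes compared, Mpo and Prtn3, which stood at 6.47 and 5.43 CPM in wild-type members. It was 3.41 with a pseudocount of 1 CPM, 1.84 with 20 CPM and 2.17 without the CPM minimum. With Il1b at least 0.3% the NF-kB median was -0.20, the cytokine median -0.10 and the specific and gelatinase median -0.040. Of the 24 genes named between the libraries, Adpgk, Hjurp, Igfbp6, Lonrf1 and Mif stayed past 2-fold in 9 of 10 alternatives and the others in all 10. Of the 240 alternative values of their log2 ratios, 202 stayed and 38 moved. Slc9a3r2 ran from 1.86 to 4.35, Mpo from 1.82 to 3.32 and Ly6g from 1.21 to 2.02.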
